A study of Mus musculus with 5 samples.

Results

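The genes described here are the receptors of the TREM family (triggering receptors expressed on myeloid cells) and TYROBP, the adaptor through which most of them signal. They were picked by gene symbol, and all 6 (Trem1, Trem2, Trem3, Treml2, Treml4 and Tyrobp) were among the 18051 genes of the count table. RNA came from dendritic cells of the thymus of C57BL/6J mice aged 6 to 8 weeks. The cells carried CD45, MHC class II and CD11c by flow sorting, and thymi had been pooled. Thymi of the 3 TBI libraries were taken on day 4 after the mice had received total body irradiation (TBI), and the 2 other libraries came from untreated mice. No other allele or agent is named in the labels, the radiation dose is not given in the sources used here, and the treatment note names the irradiated thymi by another day than the titles do. Nothing in the labels ties replicates to different pools of mice, so p-values measure the spread between these libraries, which may be technical.

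TREM receptors are single-immunoglobulin-domain proteins of myeloid cells with short cytoplasmic tails. TREM1, TREM2, TREM3 and TREML4 pair through a charged residue in the membrane with TYROBP (also called DAP12), a small dimeric adaptor whose ITAM motif recruits the kinase SYK. TREM1 amplifies inflammatory responses in neutrophils and monocytes, and TREM2 binds lipids, lipoproteins and dying cells in tissue macrophages. Treml4 encodes a receptor of splenic dendritic cells and macrophages that binds late apoptotic cells in the mouse, and Treml2 encodes a TREM-like receptor of B cells and myeloid cells that is not known to use TYROBP.

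Libraries held 7549053, 8428589 and 7940442 counts after TBI and 7346330 and 7227000 counts without treatment, so 1 count was worth 0.123 to 0.145 CPM (counts scaled by the TMM-adjusted library size). TBI replicate 1 stood apart: its chi-square per gene (near 1 where only counting error acts) was 23.1 and 27.6 against the other TBI libraries and 9.80 between those other libraries. It was 4.89 between the untreated libraries and 115 to 129 between groups. Markers of conventional dendritic cells were detected in both groups, but 12 of 17 were lower after TBI and 1 was higher (edgeR adjusted p under 0.05). H2-Ab1, a chain of the MHC class II used for the sort, averaged 11933 CPM after TBI and 18040 CPM in untreated cells. Zbtb46, a transcription factor of these cells, averaged 22.5 and 53.6 CPM in TBI and untreated cells. Other markers fell further: Flt3 averaged 36.9 and 328 CPM, Xcr1 51.4 and 368 CPM, and Clec9a 11.1 and 87.6 CPM in TBI and untreated cells.

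In GRCm38 (GENCODE M21, the build also called mm10), the 5 receptor genes lie on the forward strand of chromosome 17: Trem1 at 48232768 to 48246924, Trem3 at 48247777 to 48258841, Treml4 at 48264295 to 48275360, Treml2 at 48299498 to 48312533 and Trem2 at 48346401 to 48354147. Tyrobp lies on chromosome 7, 30413760 to 30417585, and ends 126 bases from the end of Hcst, which runs the other way. No exon of a member overlapped an exon of another gene on either strand. The receptors that changed are shown by the bases just before their starts, since neighbours of a single cluster differed in direction. The bases are from RefSeq (GRCm38.p6, forward strand), which matched 3 members, and stop before the first annotated start of the gene. Capitals mark GAGGAA on either strand (TTCCTC on the reverse), the core bound by the myeloid factor PU.1.
Trem2 at chr17:48346151-48346400, higher after TBI: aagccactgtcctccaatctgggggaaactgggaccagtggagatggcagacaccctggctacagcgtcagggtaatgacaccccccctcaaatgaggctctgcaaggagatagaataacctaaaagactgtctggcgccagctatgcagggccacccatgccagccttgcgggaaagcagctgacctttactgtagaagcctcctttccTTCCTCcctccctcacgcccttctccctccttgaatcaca
Trem1 at chr17:48232489-48232712, higher after TBI: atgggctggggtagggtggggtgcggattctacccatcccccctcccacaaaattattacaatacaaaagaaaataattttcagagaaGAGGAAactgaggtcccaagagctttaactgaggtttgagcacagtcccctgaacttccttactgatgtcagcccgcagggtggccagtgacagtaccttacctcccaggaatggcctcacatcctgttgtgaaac
Treml4 at chr17:48264045-48264199, lower after TBI: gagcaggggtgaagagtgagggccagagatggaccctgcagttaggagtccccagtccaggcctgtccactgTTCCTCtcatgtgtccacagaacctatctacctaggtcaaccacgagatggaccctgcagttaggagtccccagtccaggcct
Over the full 250 bases before the listed start, GAGGAA occurred once in the Trem1 window, once in the Trem2 window and 2 times in the Treml4 window, and it occurred in 23.3% of all 32851 promoter windows of that length. The AP-1 motif TGANTCA, palindromic, occurred once, in the Trem2 window (TGAATCA, 9 bases before the start, overlapping no GAGGAA), and in 6.75% of all windows. TGTGGT, a RUNX motif, occurred in none of these 3 windows on either strand, and in 14.0% of all windows. Windows of the genes that rose and of the gene that fell both held the PU.1 letters, and a match of letters does not show binding. The second match in the Treml4 window, 87 bases before the start, lies past the printed stretch.

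Trem2 and Trem1 rose after TBI and Treml4 fell, while Trem3, Treml2 and Tyrobp did not pass the test. Of the 6 members, all of which passed the filter on low counts, 2 were called higher and 1 lower, against 13.3% and 9.79% of all 12046 genes tested (23.1% in either direction; edgeR adjusted p under 0.05). The groups did not overlap for Trem1, Trem2, Treml4 and Tyrobp, 4 of 6 members, against 56.1% of all tested genes (27.8% higher and 28.3% lower in TBI). In bulk RNA, fewer cells of a type and less RNA per cell cannot be told apart, and this holds for each value below.

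Trem2 had 52.0, 58.4 and 67.8 CPM in the TBI libraries, against 4.32 and 3.41 CPM in the untreated ones. Every TBI library was far above both untreated libraries. The mean was 59.4 ± 7.93 CPM after TBI and 3.87 ± 0.640 CPM in untreated cells (SD, n = 3 and n = 2), which is 15.3-fold higher, or 3.93 ± 0.25 (SE) as log2 fold change (edgeR adjusted p = 2.22e-05). Macrophage markers moved with it: 16 of 19 were higher, 0 were lower and the median log2 fold change was 2.88. Their summed level was 24719 to 26766 CPM after TBI and 3290 to 3910 CPM in untreated cells, and none was at 0 in all libraries. Trem2 equalled 0.210%, 0.219% and 0.253% of that sum after TBI and 0.110% and 0.104% in untreated cells. Apoe was the largest part of the sum, with 10724, 11862 and 12812 CPM after TBI and 1478 and 1184 CPM in untreated cells. The log2 fold change of 4 of the 19 markers (Cd14, Marco, Lyve1 and Folr2) was larger than that of Trem2. The part of macrophage content in the result was not tested.

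Trem1 had 169.7, 246.7 and 140.4 CPM in the TBI libraries, against 13.3 and 22.4 CPM in the untreated ones. The lowest TBI library was several times the highest untreated one, and TBI replicate 2 was the highest of all. Means were 186 ± 54.9 CPM after TBI and 17.9 ± 6.40 CPM in untreated cells, 10.4-fold higher, or 3.38 ± 0.32 as log2 fold change (edgeR adjusted p = 1.68e-04). Neutrophils are a known source of Trem1. Of 13 tested neutrophil markers 4 were higher (Mmp9, Il1r2, Retnlg and Csf3r), 1 was lower (Mpo) and 8 did not pass. The share called in either direction was 38.5%, against 23.1% of all tested genes. The summed level of these markers and Elane, which was not tested, was 1074 to 1257 CPM after TBI. In untreated cells it was 579 and 1065 CPM. Elane and Mpo, enzymes of neutrophil precursors, were at 0 counts in all TBI libraries. In untreated replicates 1 and 2, Elane had 0 and 216 counts and Mpo had 67 and 872 counts, so most of these counts came from untreated replicate 2. S100a8, a calgranulin gene of neutrophils, had 916, 228 and 353 counts after TBI and 10 and 473 counts in untreated cells. Mmp9, the marker with the largest rise, had 203, 290 and 319 CPM after TBI against 4.94 and 8.72 CPM in untreated cells, so single markers followed different orders among the TBI libraries. The part of neutrophils in the rise of Trem1 was not tested.

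Trem3, a close relative of Trem1 in the mouse, had 29, 66 and 47 counts after TBI and 18 and 34 counts in untreated cells, which is 4.19, 8.36 and 6.14 CPM against 2.22 and 4.30 CPM. The groups overlapped, since TBI replicate 1 lay below untreated replicate 2. Its log2 fold change of 0.94 ± 0.48 did not pass (edgeR adjusted p = 0.207), and without untreated replicate 2 it was 1.48 (adjusted p = 0.287). Per kilobase of exon, Trem1 exceeded Trem3 by 13.4, 9.80 and 7.59 times in the TBI libraries and by 1.99 and 1.73 times in the untreated ones.

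Treml4 had 23.8, 28.9 and 26.9 CPM in the TBI libraries, against 65.5 and 74.6 CPM in the untreated ones. All TBI libraries lay within a narrow range below both untreated libraries. Means were 26.5 ± 2.53 CPM after TBI and 70.1 ± 6.41 CPM in untreated cells, 2.64-fold lower, or -1.40 ± 0.18 as log2 fold change (edgeR adjusted p = 7.77e-04). Markers of conventional dendritic cells were lower for 12 of 17 (1 higher, median -1.25). Their summed level was 12926 to 17956 CPM after TBI and 24025 and 24431 CPM in untreated cells. H2-Ab1 made up most of that sum, with 14531, 11677 and 9592 CPM after TBI and 18046 and 18035 CPM in untreated cells. All 11 plasmacytoid dendritic cell markers were lower (median -3.01), with 526 to 628 CPM in all after TBI and 3563 and 3679 CPM in untreated cells. Among 12 tested monocyte markers 4 were higher (Lyz2, F13a1, Fn1 and Ccr2) and 2 lower (Plac8 and Ly6c2). The summed level of the monocyte markers was 30782 to 36045 CPM after TBI and 4123 and 4699 CPM in untreated cells. Most of the sum in each TBI library was Lyz2, with 31750, 27098 and 23935 CPM after TBI and 2159 and 1681 CPM in untreated cells. The part of these cell types in the fall of Treml4 was not tested.

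Treml2 had 45, 96 and 75 counts after TBI and 59 and 93 counts in untreated cells, and the groups overlapped fully. Its means were 9.48 ± 2.84 CPM after TBI and 9.52 ± 3.17 CPM in untreated cells, and its log2 fold change was -0.00 ± 0.36 (edgeR adjusted p = 0.997), so the interval still holds changes of either direction. The sign turned when untreated replicate 2 (0.38) or TBI replicate 1 (0.21) was left out. B cell markers, of which 4 of 7 tested were higher and 1 lower, summed to 255 to 413 CPM after TBI and 89.0 and 108 CPM in untreated cells, and their part in the level of Treml2 was not tested.

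Tyrobp was by far the most abundant member, with 1463, 1134 and 1090 CPM in the TBI libraries, against 914 and 924 CPM in the untreated ones. All TBI libraries were above the untreated ones, and TBI replicate 1 was the highest. Its log2 fold change of 0.42 ± 0.15 did not pass (edgeR adjusted p = 0.0807). Without TBI replicate 1, the library that stood apart, the remaining libraries lay closer together, and a smaller log2 fold change of 0.28 passed (adjusted p = 0.0335). Natural killer cells also use TYROBP. All 10 tested natural killer markers were higher, with 851 to 985 CPM in all after TBI and 39.7 and 46.9 CPM in untreated cells, and their part in the level of Tyrobp was not tested. T cell markers were mostly lower (7 of 12, with 1 higher), with 1408 to 1560 CPM after TBI and 2033 and 2292 CPM in untreated cells.

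**Figure D1:**
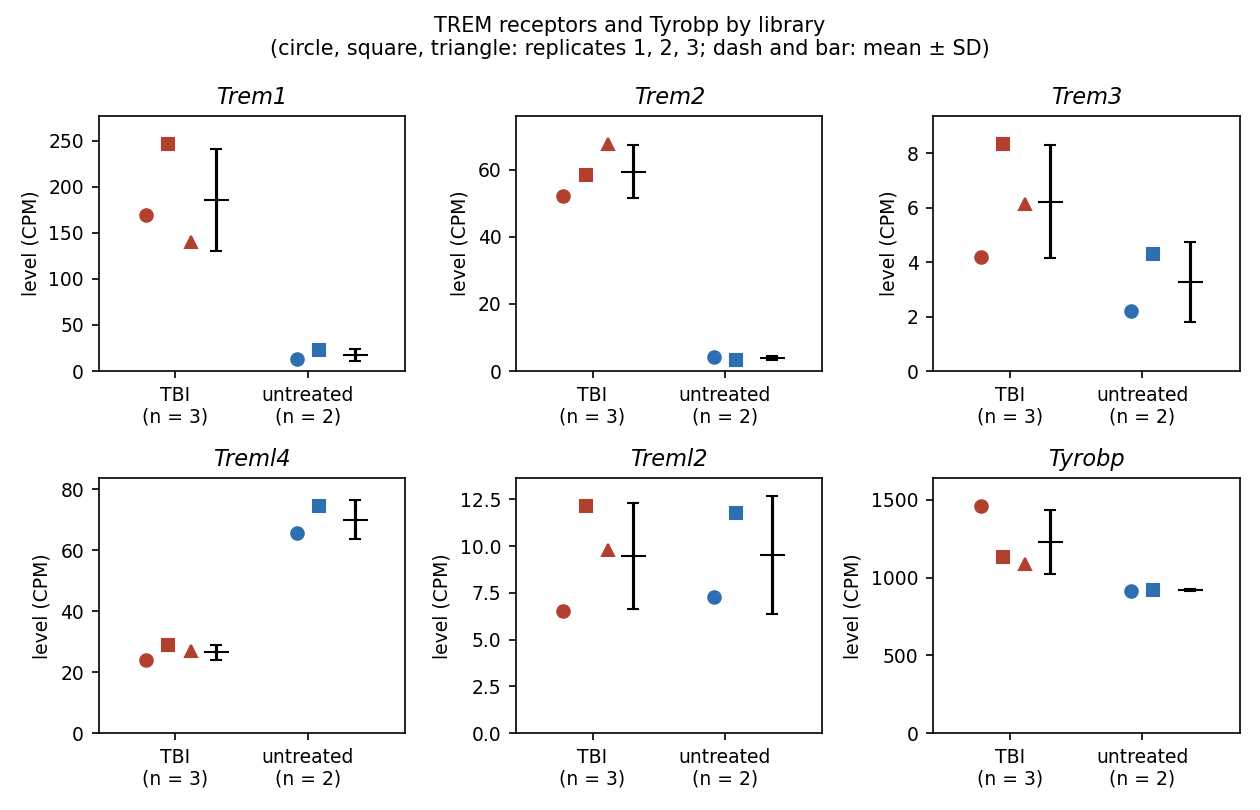
Level of each member in CPM in every library, with TBI at the left and untreated at the right of each panel and axes that start at 0. Points are libraries and the dash with its bar is the mean and SD; Trem2 and Trem1 are higher in all 3 TBI libraries, Treml4 is lower in all 3, and Trem3 and Treml2 overlap.

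Levels of different genes were compared per kilobase, as CPM divided by the length of all annotated exons. On this scale Tyrobp came first in both groups, at 1842 ± 306 CPM per kilobase after TBI and 1370.4 and 1384.6 in the untreated libraries. After TBI the order was Trem1 (61.9 ± 18.3), Treml4 (13.3 ± 1.27), Trem2 (10.5, 11.8 and 13.7 by library), Trem3 (6.27 ± 2.10) and Treml2 (1.93 ± 0.577), and Treml4 and Trem2 overlapped between libraries. In untreated cells it was Treml4 (35.1 ± 3.21), Trem1 (5.96 ± 2.14), Trem3 (3.28 ± 1.48), Treml2 (1.94 ± 0.644) and Trem2 (0.782 ± 0.129), and Trem3 and Treml2 overlapped. The exon length of Trem2, 4946 bases, comes largely from a transcript with a retained intron, while its longest protein-coding transcript has 1088 bases. With the longest protein-coding transcript as the length, Trem2 stood at 54.6 ± 7.29 CPM per kilobase after TBI, within the range of Trem1 (62.0 ± 18.4), and at 3.55 ± 0.589 in untreated cells, within the range of Trem3.

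Of the 5 receptors, Treml4 contributed most transcript in untreated cells and not after TBI. It made up 14.1%, 12.1% and 16.4% of the summed exon-scaled level of the 5 receptors in the TBI libraries, against 78.4% and 71.5% in the untreated ones. Trem1 made up 66.9%, 68.9% and 57.0% in the TBI libraries, against 10.6% and 14.3% in the untreated ones. By the longest protein-coding transcript it made up 45.7%, 50.2% and 35.2% after TBI, against 8.90% and 12.3% in untreated cells. The share of Trem2 depended on the length used: it was 9.88% to 16.7% after TBI and 1.32% and 2.09% in untreated cells by all exons, and 32.7% to 46.7% after TBI and 5.17% and 7.93% in untreated cells by the longest protein-coding transcript. On the second scale Trem2 (46.7%) exceeded Trem1 (35.2%) in TBI replicate 3, so which of the 5 receptors came first after TBI depended on the length used. The sum leaves out other genes of the cluster that RefSeq lists under TREM names. A530064D06Rik, listed also as Trem4, had 64.5 ± 12.3 CPM per kilobase after TBI on the second scale. That mean was above those of Trem1 and Trem2. By all exons it had 20.4 ± 3.89. By the longest protein-coding transcript Treml4 had 10.1% to 11.6% of the sum after TBI and 70.5% and 75.1% in untreated cells. Shares of a sum depend on each other, so a rise of Trem1 and Trem2 lowers the share of Treml4 by itself.

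**Figure D2:**
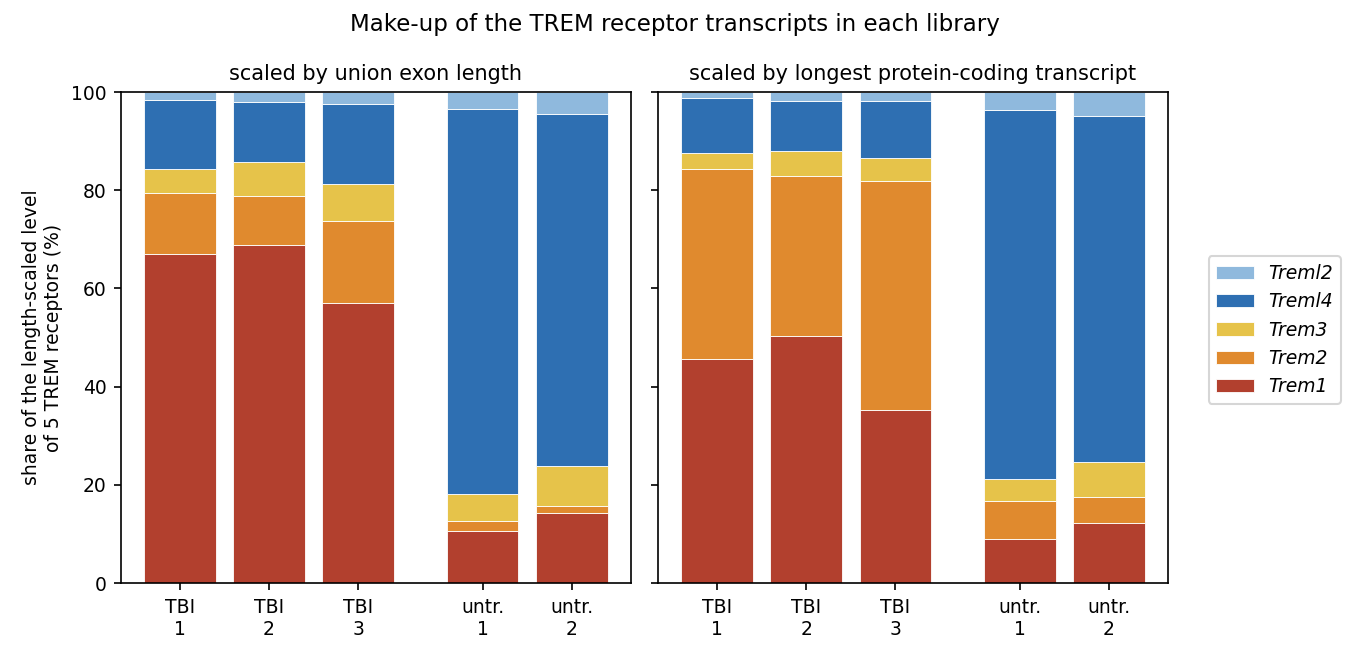
Share of each of the 5 TREM receptors in their summed length-scaled level, in percent, for each library, with TBI libraries left of untreated ones; the left panel divides by all exons and the right panel by the longest protein-coding transcript. Treml4 holds at least 70.5% of the bar in both untreated libraries and at most 16.4% in each TBI library on both scales.

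Receptor transcript relative to its adaptor was also examined. Tyrobp exceeded the summed exon-scaled level of the 5 receptors by 25.9, 14.2 and 19.9 times in the TBI libraries and by 32.7 and 26.5 times in the untreated ones. The log2 ratio of receptors to Tyrobp averaged -4.28 ± 0.43 after TBI and -4.88 ± 0.22 in untreated cells, a difference of 0.60. The groups were separated narrowly, since TBI replicate 1 (-4.70) lay beside untreated replicate 2 (-4.73). An exact two-sided permutation test gave p = 0.2, the smallest p that this test can give for 3 libraries against 2. It was 0.38 without TBI replicate 2, 0.81 without TBI replicate 1, and 0.93 with the longest protein-coding transcript as the length.

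Other genes of the same chromosome region moved as well. RefSeq lists A530064D06Rik also as pdctrem and Trem4, 9830107B12Rik also as Trem5 and B430306N03Rik also as Treml6. A530064D06Rik, on chromosome 17 at 48149126 to 48167275, had 129, 137 and 93.8 CPM in the TBI libraries, against 14.7 and 19.8 CPM in the untreated ones. All TBI libraries were higher, with a log2 fold change of 2.79 ± 0.24 (edgeR adjusted p = 9.40e-05). B430306N03Rik, between Treml2 and Trem2, had 57.7, 42.8 and 49.0 CPM after TBI against 17.9 and 15.8 CPM in untreated cells, also without overlap (1.56 ± 0.21; edgeR adjusted p = 0.00118). 9830107B12Rik (-0.54 ± 0.24; adjusted p = 0.155) and Nfya, a transcription factor gene beyond the cluster (-0.30 ± 0.22; adjusted p = 0.374), did not pass in edgeR. 9830107B12Rik was called when libraries were scaled by size alone (adjusted p = 0.0437). Treml1, a receptor of platelets and megakaryocytes, had 2, 0 and 8 counts after TBI and 0 and 3 counts in untreated cells and was not tested. From one end of the cluster to the other, then, genes that rose (A530064D06Rik and Trem1, B430306N03Rik and Trem2) stood on both sides of Trem3, Treml4 and Treml2, which fell or did not pass.

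Hcst, which lies next to Tyrobp and encodes the related adaptor DAP10 that recruits phosphoinositide 3-kinase, had 50.1, 39.5 and 39.2 CPM in the TBI libraries, against 17.3 and 14.0 CPM in the untreated ones. The groups did not overlap, and the log2 fold change was 1.45 ± 0.22 (edgeR adjusted p = 0.00211). Per kilobase of exon, Hcst equalled 3.17%, 3.22% and 3.32% of Tyrobp after TBI and 1.75% and 1.40% in untreated cells. The strand setting of the counting is not given in the sources used here. The 2 genes end 126 bases apart and share no annotated exon base.

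**Figure D3:**
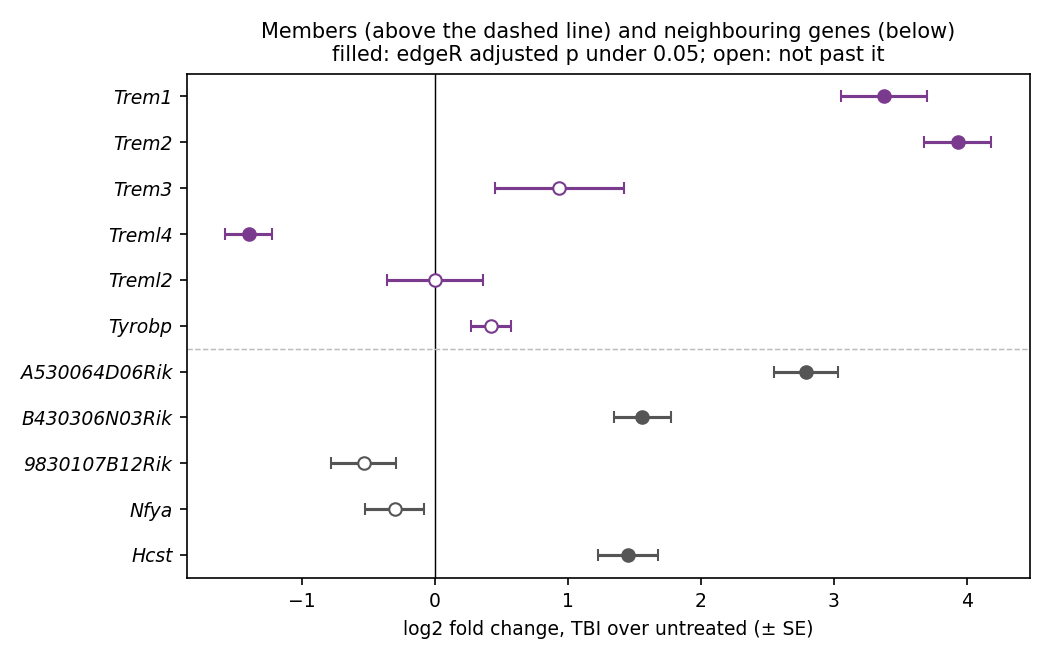
Log2 fold change of TBI over untreated libraries with its SE for the 6 members, above the dashed line, and for other genes of the Trem region and Hcst, below it. Filled points passed an edgeR adjusted p of 0.05: Trem1, Trem2, A530064D06Rik, B430306N03Rik and Hcst lie right of 0 and Treml4 left of it.

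Among other receptors listed as partners of TYROBP, most rose and Siglech, the receptor of plasmacytoid dendritic cells, fell. Among 14 tested, 11 were called higher, 1 lower and 2 neither. The shares were 78.6% higher and 7.14% lower, against 13.3% and 9.79% of all tested genes. The median log2 fold change was 2.01, against -0.01 over all tested genes. Plxna1, Cd300ld and Klra9, an inhibitory receptor in this strain, are no partners of TYROBP in the strict sense. Without them 8 of 11 were called higher, 1 lower and 2 neither, a trim made after values were seen. Pilrb2 had 107.5, 89.6 and 73.4 CPM after TBI against 10.4 and 10.6 CPM in untreated cells (3.10 ± 0.23; edgeR adjusted p = 3.94e-05). Pilrb1, a near copy of it that can share its reads, had a log2 fold change of 2.97 ± 0.24, so values of the single genes are uncertain. Cd300ld, an activating receptor known mainly for pairing with the Fc receptor gamma chain, had 2.74 ± 0.17. Siglech had 15.2, 45.4 and 62.0 CPM after TBI against 1073 and 1078 CPM in untreated cells (-4.71 ± 0.46; edgeR adjusted p = 1.81e-04). Plxna1, the plexin that pairs with TREM2 in mouse dendritic cells, rose with 0.98 ± 0.22 (adjusted p = 0.0147), a call lost without untreated replicate 1 (adjusted p = 0.0663) or untreated replicate 2 (0.195). Klrk1, which encodes NKG2D, had 0.50 ± 0.19 and did not pass. Cd200r3 had 14, 21 and 23 counts after TBI against 11 and 0 counts in untreated cells and did not pass either, and Siglec15, Klra4 and Klra8 had at most 1 count in any library. Without untreated replicate 1 or without untreated replicate 2, 7 of these receptors were higher, where the group is left with a single library.

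The 5 TREM receptors, Treml2 included, made up a larger share after TBI of the summed transcript of these partners, and a smaller one once Siglech was taken out. Plxna1, Cd300ld and Klra9 were left out of the sum. Over the 14 others and the 5 TREM receptors, scaled by the longest protein-coding transcript, the TREM genes made up 35.7%, 43.0% and 37.3% after TBI, against 8.74% and 10.3% in untreated cells. Siglech made up 1.90%, 5.18% and 7.54% after TBI, against 81.4% and 79.8% in untreated cells. Without Siglech in the sum, the TREM genes made up 36.3%, 45.4% and 40.3% after TBI, against 46.9% and 51.2% in untreated cells. All TBI libraries then lay below both untreated ones, so the order of the groups depended on whether Siglech was counted. The summed level of the 5 genes themselves on this scale was 124, 164 and 133 CPM per kilobase after TBI. In untreated cells it was 50.1 and 60.7. A530064D06Rik, listed also as Trem4, was not in the sum. It had 64.5 ± 12.3 CPM per kilobase after TBI and 9.29 ± 1.96 in untreated cells on this scale. Shares with this gene included were not computed, so the order of the groups holds for the 5 genes only. By all exons the TREM share was 31.5%, 39.9% and 31.6% after TBI and 10.5% and 12.7% in untreated cells, and without Siglech it was 32.1% to 41.8% after TBI and 51.7% and 56.5% in untreated cells. The summed exon-scaled level of these 19 receptors was 260 to 299 CPM per kilobase after TBI and 398 and 411 in untreated cells.

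**Figure D4:**
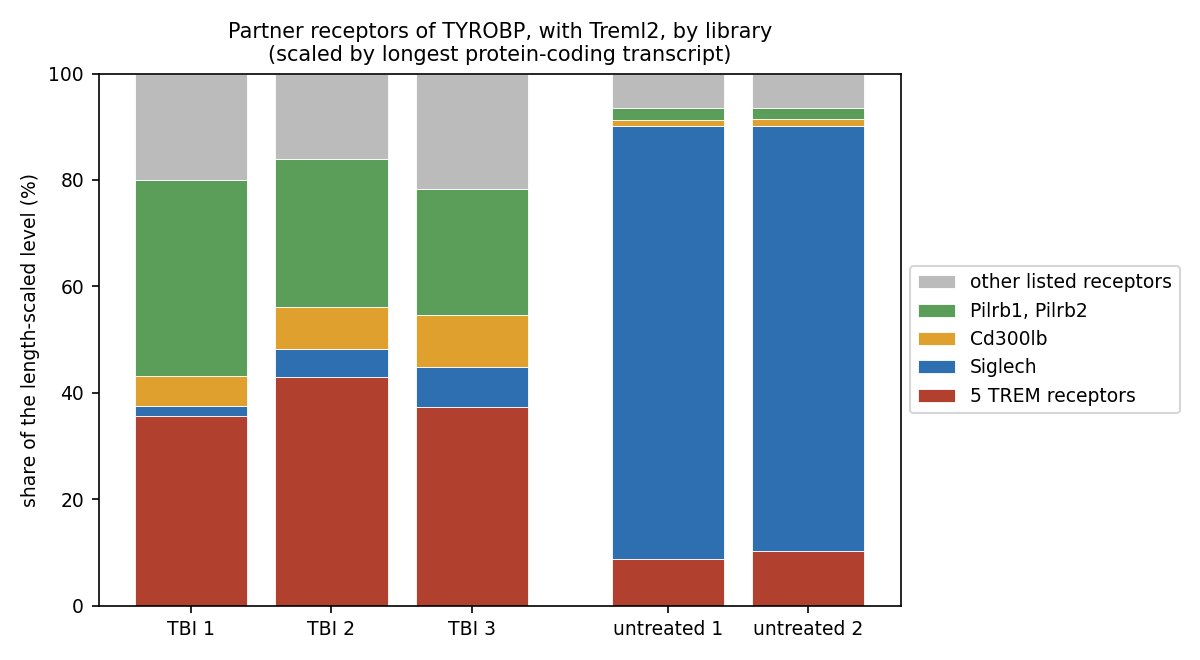
Share in percent of the summed level, scaled by the longest protein-coding transcript, of 19 receptors in each library, with TBI libraries left of untreated ones. Siglech fills 81.4% and 79.8% of the untreated bars and at most 7.54% of a TBI bar. The 5 TREM receptors and Pilrb1 with Pilrb2 are the largest parts of the TBI bars.

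Downstream signalling genes were called in both directions, at shares near those of all genes. Of 38 tested genes for kinases, adaptors, lipid enzymes and phosphatases around TYROBP and HCST, 6 were called higher and 6 lower (15.8% each, against 13.3% and 9.79% of all tested genes) and 26 neither, and the median was -0.15. Dok2, an adaptor that restrains tyrosine kinase signalling, rose most, with 416, 414 and 395 CPM after TBI against 78.9 and 70.0 CPM in untreated cells (2.46 ± 0.14; edgeR adjusted p = 1.23e-05). The SRC family kinase Fyn (-1.17 ± 0.16) fell, as did the phosphatase genes Inpp5d, which encodes SHIP1 (-1.03 ± 0.31), and Ptpn6, which encodes SHP1 (-0.42 ± 0.11). Syk, the kinase bound by the ITAM of TYROBP, had 140, 275 and 274 CPM after TBI against 173 and 193 CPM in untreated cells. TBI replicate 1 lay below the untreated libraries and the other TBI libraries above them, and the log2 fold change of 0.33 ± 0.27 did not pass (edgeR adjusted p = 0.434). It was called without TBI replicate 1 (adjusted p = 0.00179). The higher genes numbered 2 without untreated replicate 2. The lower genes numbered 2 without untreated replicate 1, without untreated replicate 2 or without TBI replicate 2, each of which lost the calls of Inpp5d (adjusted p = 0.136, 0.151 and 0.0894) and Ptpn6 (0.267, 0.195 and 0.102), and 11 with scaling by library size alone.

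Reported ligands of the family were called in both directions. Of 9 tested, 3 were called higher and 1 lower (33.3% and 11.1%, against 13.3% and 9.79% of all tested genes). The other 5 were neither, and the median was 0.50. The higher genes were Apoe, C1qa and Lgals3, which encode a lipid carrier, a complement chain and galectin-3, all described as binding TREM2. Lgals3 had 1349, 1222 and 1204 CPM after TBI against 517 and 494 CPM in untreated cells (1.32 ± 0.12; edgeR adjusted p = 1.30e-04). Sema6d, the semaphorin ligand of plexin-A1, fell, with 3.32, 3.92 and 6.66 CPM after TBI against 17.3 and 15.9 CPM in untreated cells (-1.83 ± 0.34; adjusted p = 0.00576), and was not called without untreated replicate 1 (adjusted p = 0.0648). Pglyrp1, which encodes a peptidoglycan recognition protein that binds TREM1, had 0.50 ± 0.22 and did not pass (edgeR adjusted p = 0.146). Apob had 0 counts in all 5 libraries.

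Of 12 tested genes for the cleavage of TREM2, 4 were called higher (33.3%, against 13.3% of all tested genes), 0 lower and 8 neither, and the median was 0.38. Ms4a6d, of the MS4A family that is tied to soluble TREM2 in humans, rose, with 220, 219 and 206 CPM after TBI against 47.8 and 39.2 CPM in untreated cells (2.31 ± 0.15; edgeR adjusted p = 2.64e-05). Adam10, a sheddase of TREM2, rose too (1.19 ± 0.24; adjusted p = 0.00787), but not without untreated replicate 1 (adjusted p = 0.0681). The gamma-secretase subunits Psen2 (0.77 ± 0.19) and Psenen (0.80 ± 0.23) passed, and lost the call without untreated replicate 1 (adjusted p = 0.153 and 0.220), without untreated replicate 2 (0.233 and 0.209), without TBI replicate 2 (0.0504 and 0.0685) and with scaling by library size alone (0.0589 and 0.0853). Adam17, the other sheddase, had -0.24 ± 0.26 (edgeR adjusted p = 0.553). The higher genes numbered 1 without untreated replicate 1 and 2 without untreated replicate 2, without TBI replicate 2 or with library size alone.

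Genes described as rising with TREM2 in lipid-associated macrophages and in microglia near plaques were mostly higher. Of 30 tested, Trem2 and Tyrobp left out, 23 were called higher, 2 lower and 5 neither, and the median was 1.17. The shares were 76.7% higher and 6.67% lower, against 13.3% and 9.79% of all tested genes. Lpl, the lipoprotein lipase, had 865, 775 and 803 CPM after TBI against 52.8 and 44.1 CPM in untreated cells (4.07 ± 0.16; edgeR adjusted p = 3.23e-06), without overlap. The chemokine Ccl6 (4.00 ± 0.20) and the lysosomal protease Ctsd (2.24 ± 0.12) rose likewise, while Spp1, which encodes osteopontin (0.51 ± 0.33), and Cd9, a tetraspanin (-0.01 ± 0.20), did not pass. Ctsl (-0.62 ± 0.13), another lysosomal protease, and Itgax, which encodes the CD11c of the sort (-0.62 ± 0.18), fell. Itgax was not called without untreated replicate 1 (adjusted p = 0.205), untreated replicate 2 (0.191) or TBI replicate 2 (0.0909), nor Ctsl without untreated replicate 2 (0.173). The lower genes then numbered 1, 0 and 1. These lists were written with results of these data known, and macrophage markers rose in the same libraries, so the count is a description.

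**Figure D5:**
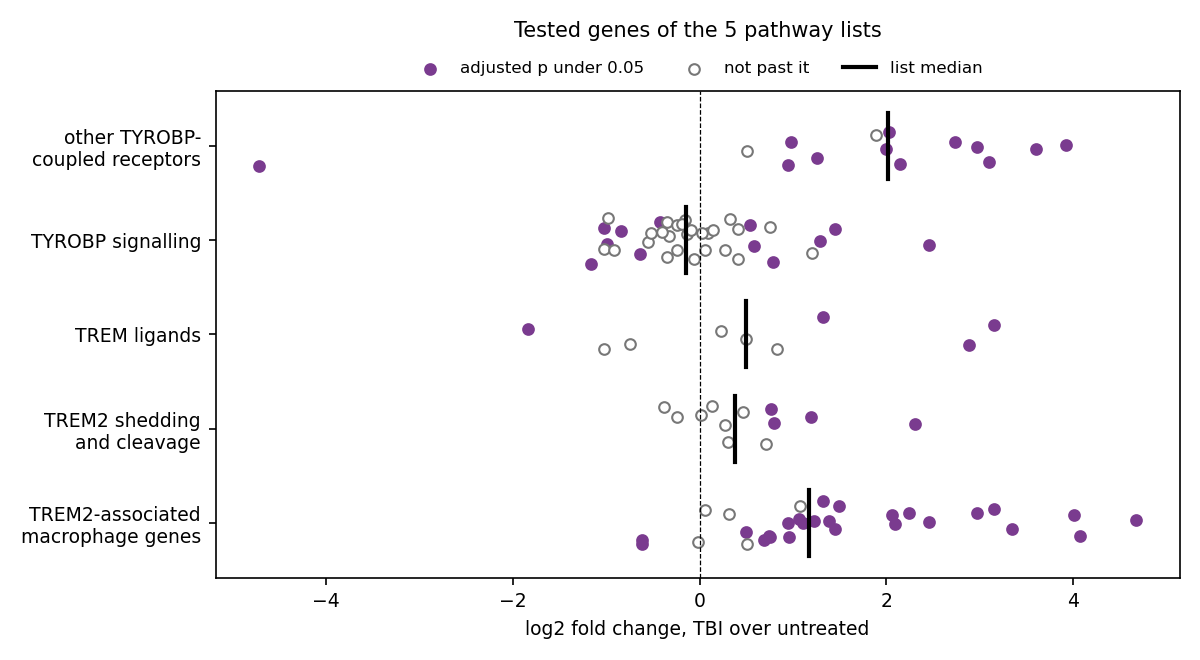
Log2 fold change of TBI over untreated libraries for the tested genes of each of 5 lists, with the list median as a bar and filled points for an edgeR adjusted p under 0.05. Partner receptors and TREM2-associated genes lie mostly right of 0 (medians 2.01 and 1.17), while the signalling genes sit around 0 (median -0.15), and the isolated point at the left is Siglech.

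The genes with the most similar course across the 5 libraries were found by the root mean square difference of log2 CPM after each gene was centred on its own mean, among the 9052 tested genes whose mean log2 CPM was 3 or more. Closest to Trem2 were Nt5e (0.088), Msr1 (0.144) and Thbd (0.148), which encode CD73, a macrophage scavenger receptor and thrombomodulin. Nt5e had 48.4, 60.5 and 67.3 CPM after TBI against 3.70 and 3.29 CPM in untreated cells. Like Trem2, it was lowest in TBI replicate 1 and highest in TBI replicate 3 among the TBI libraries. It was picked for its likeness over these same libraries, so the shared order is no separate result. Closest to Trem1 were Scamp5 (0.168), Padi4 (0.240) and Hmox1 (0.268), of which Hmox1 encodes heme oxygenase 1. Closest to Treml4 were Slc44a2, Eif2ak4 and Ifi44 (0.060 to 0.064), closest to Tyrobp Cmtm7, Pcna and Tmbim4 (0.012 to 0.018), closest to Trem3 Csf1, Zfp704 and F5 (0.120 to 0.154) and closest to Treml2 Agbl5, Fancc and Cenpb (0.115 to 0.146). Members with a large change have larger distances than those with a small one, so the values rank genes within a member and not between members.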

How the data were processed

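RNA-seq counts of sorted thymic dendritic cells were analysed in 3 TBI and 2 untreated libraries. The authors deposited raw read counts by gene symbol. The submitters' processing notes name mm10, STAR 2.5.2a, featureCounts (Subread 1.6.0) and edgeR. The annotation, strand setting and treatment of multiply mapped reads are not given in the sources used here. Of 18051 genes 1476 had no count, 23 symbols had become dates (0.221% of counts, kept in totals and tests, none named), and 0 columns were of other samples.

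Counts were tested with edgeR 4.0.16 (R 4.3.3; TMM, filterByExpr with minimum count 10 and total 15, quasi-likelihood F-test, Benjamini-Hochberg over 12046 genes, threshold 0.05), with the group as the only term. Values in parentheses after a gene are log2 fold changes, TBI over untreated, ± SE, where the SE is the fold change over the root of F. The 6 members, the 5 pathway and 8 marker lists and the tests were chosen with earlier results of these data known. Named were all members, genes of the Trem region and next to Tyrobp, Hcst and Syk, up to 4 genes per list with the smallest p, and for each member the 3 nearest profiles (mean log2 CPM at least 3, prior count 2). Other list genes were chosen after their values were seen, and 1 gene that the rule names is not reported here. Lengths came from GENCODE M21. Alternatives were DESeq2 1.42.0 size factors and Wald test, limma 3.58.1 voom, upper quartile and library size scaling, no or a stricter filter (1 CPM in 3 libraries and 100 counts in all), a block for the replicate number, robust shrinkage, each library left out, and other lengths; the longest protein-coding transcript was added after the data were seen. Fits that leave out an untreated library take the spread of the other one from the TBI libraries. Functions were tested on simulated data. Figures used matplotlib 3.10.9 in Python 3.11.15.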

Additional observations from a re-analysis of the deposited data

How the results depend on the processing

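Trem1, Trem2 and Treml4 kept their direction and their call in all 14 alternatives, with log2 fold changes of 3.05 to 3.80, 3.71 to 4.11 and -1.62 to -1.30. Trem3 was called in 0 of 14 (0.54 to 1.48) and Treml2 in 0 of 14, with a reversed sign in limma-voom (0.010), without untreated replicate 2 (0.38) and without TBI replicate 1 (0.21), and -0.31 to 0.38 over all libraries left out in turn. Tyrobp ranged from 0.19 with library size alone to 0.50 and was called in 2 of 14. The labels do not say that replicate numbers mark a shared pool. Deviations of same-numbered libraries from their group mean correlated at -0.016 and -0.010 across genes. With 2 untreated libraries these deviations mirror each other, so the values cannot tell whether same-numbered libraries share a pool. With the replicate block Tyrobp had 0.49 (adjusted p = 0.0428), Trem1 3.56 and the all-gene calls were 1493 higher and 1284 lower.

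Over all genes 1599 were higher and 1179 lower. With library size alone the median log2 fold change went to -0.23, the calls to 1241 higher (36.8% of calls, against 57.6%) and 2129 lower, the lower signalling genes to 11 and the higher cleavage genes to 2. Leaving out single libraries gave 810 to 2148 higher and 423 to 1780 lower genes, 2 to 9 higher and 2 to 9 lower signalling genes, 7 to 12 higher partner receptors, 1 to 6 higher cleavage genes, 0 to 1 lower ligands and 0 to 2 lower TREM2-associated genes. The log2 ratio of receptors to Tyrobp differed by 0.60, by 1.04 on counts with no length scaling, by 0.48 with the longest transcript and by 0.38 to 0.81 with single libraries left out. The cause of these shifts was not tested, and fits with a library left out also rest on fewer libraries. Changes in genes with few counts, such as Trem3 and Treml2, are limited by depth.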

Other observations

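TBI replicate 1 stood below the other TBI libraries for several signalling genes, chosen here after their values were seen. Inpp5d had 109, 228 and 262 CPM after TBI against 403 and 410 CPM in untreated cells, and Plcg2, a phospholipase activated by SYK, had 132, 264 and 301 CPM after TBI against 296 in both untreated libraries. Other genes of the list did not share this: Sos1, an exchange factor for RAS, had 19.1, 15.2 and 20.1 CPM after TBI against 17.8 in both untreated libraries. In the same library Tyrobp and Hcst were at the highest level of their group. The cause was not tested.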
